A study of Homo sapiens with 8 samples.

Results

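Interleukin receptors and cytokines of the interleukin 6 family were followed in A549, a human cell line derived from a lung adenocarcinoma, before and after a glucocorticoid. The list holds 10 genes, chosen by name with earlier results of these data known. Its receptors are IL6R, IL6ST, LIFR, OSMR, IL1R1, IL1RL1, IL4R and IL13RA1, and its ligands are LIF and IL11. Every probe with one of these symbols in the platform annotation was used, which gave 12 of 22011 probes and covered 9 of the 10 genes. IL11 had no probe by symbol in that annotation and was not analysed here. Of the 9 genes, 8 were detected often enough to be tested, out of 10964 tested genes, and IL1RL1 was not.

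Total RNA was hybridised to an Illumina HumanRef-8 v3 BeadChip, on which each probe is an oligonucleotide on beads read as a fluorescence intensity. All 8 arrays came from A549 cells carrying shGLP, a hairpin that targets GLP. GLP, the product of EHMT1, methylates lysine 9 of histone H3. At 0 h there were 4 arrays, and 4 more were taken after 24 h with 100 nM dexamethasone, a synthetic glucocorticoid, in cells kept beforehand in phenol red-free medium with charcoal-stripped serum. Cells without this hairpin and a 24 h culture without dexamethasone were not analysed here, so the hormone and the time in culture cannot be told apart. The sources used here do not say whether the 0 h cells received vehicle, whether the hairpin cells are 1 clone, or whether replicates are separate cultures, so p-values measure only the spread between these arrays. Replicates 1 and 2 of both times lie on slide 1, and replicates 3 and 4 on slide 2.

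Receptors of the interleukin 6 family signal through gp130, the shared chain encoded by IL6ST. Interleukin 6 binds IL6R, which recruits gp130, while LIF acts through LIFR with gp130, and oncostatin M acts through OSMR or LIFR with gp130. These complexes activate JAK kinases and the transcription factor STAT3, which in liver and lung epithelium drives acute-phase genes. IL4R pairs with IL13RA1 to bind interleukin 4 or 13 on non-haematopoietic cells and signals through STAT6. IL1R1 and IL1RL1 bind interleukin 1 and interleukin 33, and signal through MYD88 and IRAK proteins. Glucocorticoids are known for repressing many inflammatory cytokine genes.

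Values are normalised log2 intensities. A probe counts as detected on an array where its detection p-value was under 0.05, and differences are 24 h minus 0 h from limma, with p-values adjusted by the Benjamini-Hochberg method over all tested probes and a threshold of 0.05. Between 13897 and 14797 probes were detected per array, and member probes rested on 17 to 58 beads per array. EHMT1, the gene that the hairpin targets, measured 5.48, 5.57, 5.13 and 5.38 at 0 h and 5.78, 5.72, 5.68 and 5.81 at 24 h. With no array of cells without the hairpin, these values do not check the knockdown. Of 10 markers of A549 and lung epithelium, all were tested and 6 rose (limma adjusted p under 0.05). At that threshold 4.72% of all tested genes rose and 5.34% fell. PTPRC and CD3E (leukocytes), TPSAB1, CPA3 and HDC (mast cells), and COL1A2, COL3A1 and PDGFRB (fibroblasts) were detected on none of the 8 arrays. Other markers of these lists were detected on all 8, namely CD14 on its brighter probe, CD68, KIT, COL1A1 and THY1. So was PECAM1, an endothelial marker. Of 7 fibroblast markers 3 were tested, of which COL1A1 fell by 1.22. One DCN probe, detected on no 0 h array and on all 4 of 24 h, had to differ once tested and was at least 2.98-fold higher, and the other DCN probe was detected on no array. No marker passed among 3 endothelial, 2 leukocyte and 1 mast cell markers tested.

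Of the 7 receptors tested, 6 were detected on all 8 arrays, and of these OSMR rose from 0 h to 24 h (limma adjusted p under 0.05) and none fell. IL6R was detected at 24 h only, so its direction followed from the detection filter, and it is left out of the counts here and described below. Over all tested genes 4.72% rose and 5.34% fell. Estimates of the 6 receptors all lay above 0, from 0.17 to 1.01 with a median of 0.39, against a median of -0.01 and 48.8% above 0 over all tested genes. For 3 of the 6 every 24 h array lay apart from every 0 h array, namely OSMR, LIFR and IL13RA1, always with 24 h higher. The same held for 8.26% of all tested genes. Each of the 6 receptors was higher at 24 h in all 4 replicate pairs on its brightest probe, against 19.5% of all tested genes. The genes were chosen with earlier results of these arrays known, so these counts are not independent evidence of a direction. LIF, the 1 ligand with a tested probe, was lower in 4 of 4 pairs, as were 21.7% of all tested genes, and did not pass the test. Same-numbered replicates varied together, and with the replicate number as a block 3 of the 6 receptors passed, the 3 whose arrays did not overlap, while 7.99% of all tested genes rose and 8.98% fell in that fit. In RNA from whole cultures, fewer cells carrying a transcript and less of it per cell cannot be told apart.

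**Figure D1:**
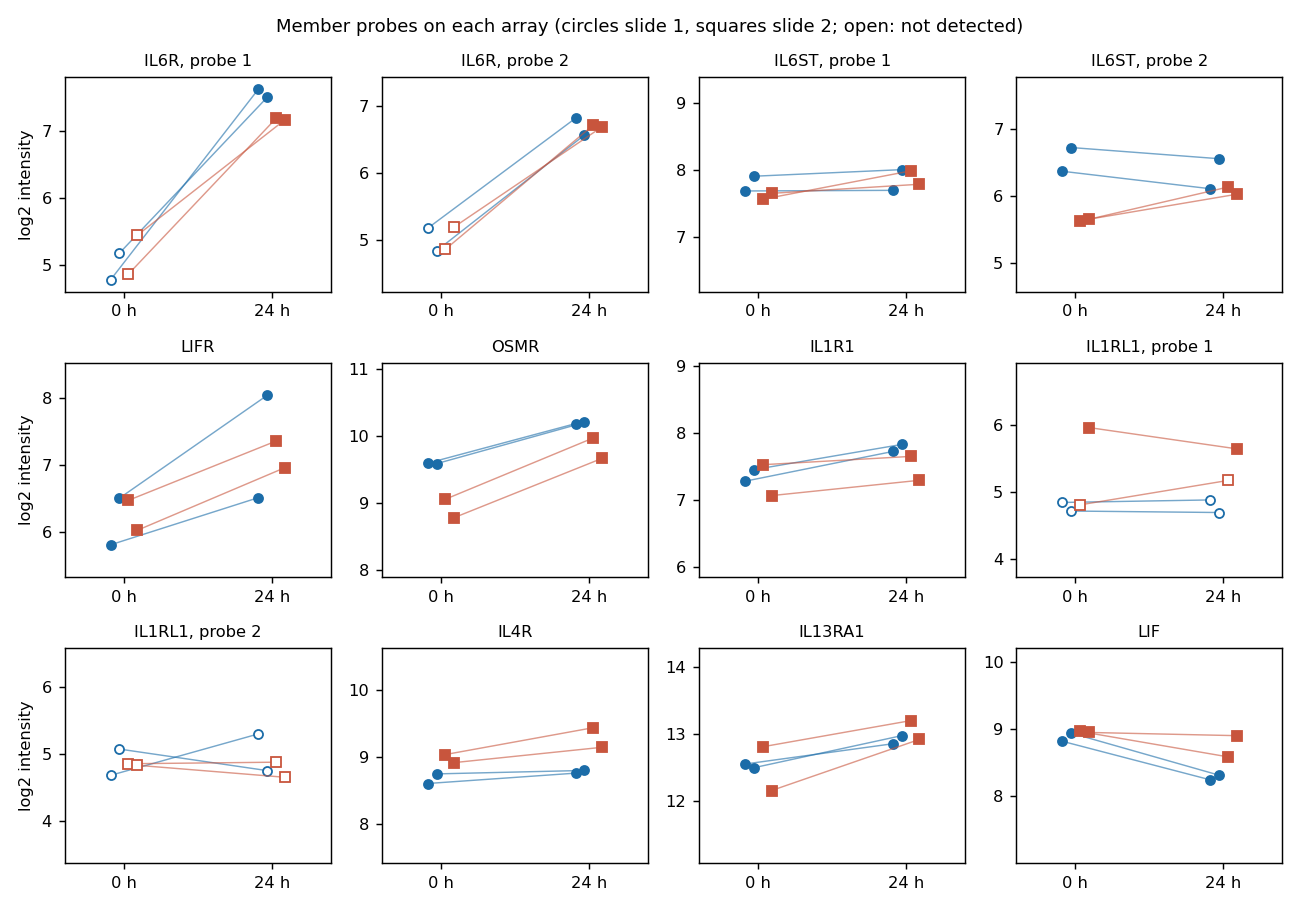
Normalised log2 intensity (vertical axis) of each of the 12 member probes on each of the 8 arrays, with 0 h and 24 h side by side, points joined by replicate number, circles for slide 1, squares for slide 2 and open symbols where the probe was not detected. Probe 1 is the one annotated to the soluble form for IL6R and IL1RL1 and to the full-length form for IL6ST. The IL6R probes move from undetected to detected, OSMR, LIFR and IL13RA1 shift upward in each replicate, and LIF shifts downward with overlapping arrays.

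IL6R encodes the ligand-binding chain of the interleukin 6 receptor, which exists as a membrane form and, from an alternatively spliced transcript or by shedding, as a soluble form. It was read by 2 probes, one annotated to the transcript of the soluble form and one to that of the membrane form. Whether either probe reads 1 transcript alone is not known, since probe sequences were not used here. The soluble-form probe measured 4.78, 5.18, 4.87 and 5.45 at 0 h and 7.63, 7.51, 7.19 and 7.17 at 24 h. None of the 4 arrays at 0 h detected it and all 4 at 24 h did, so its 0 h level is only a bound. With the background correction used here, IL6R was at least 3.70-fold higher at 24 h on this probe. The bound sets the 24 h mean against the dimmest detected signal of each 0 h array, or the probe's own signal if higher. The fitted difference was 2.30 ± 0.18 (SE, n = 4 and 4, limma adjusted p = 4.31e-05) on the log2 scale, from a mean of 5.07 ± 0.30 (SD) to 7.37 ± 0.23 (SD). It was 2.58 on slide 1 and 2.02 on slide 2. That p-value belongs to a fit on undetected 0 h signal, not to the bound, and the direction followed from the detection filter.

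The membrane-form probe of IL6R measured 5.18, 4.84, 4.86 and 5.20 at 0 h and 6.82, 6.56, 6.71 and 6.69 at 24 h. Again no 0 h array detected it and every 24 h array did, with 24 h values close together. With the same correction the gene was at least 2.31-fold higher at 24 h on this probe. The fitted difference was 1.68 ± 0.14 (SE, limma adjusted p = 5.32e-05), with 1.68 on slide 1 and 1.67 on slide 2. Both probes entered the test only through their 24 h arrays, so IL6R, once tested, had to be higher there. Neither p-value is therefore evidence for its direction. These sizes, the bounds included, depend on how background is removed. On the soluble-form probe the log2 difference was 1.82 on the authors' deposited log2 values, 1.56 with a larger offset of 50 and 1.14 without background correction. On the membrane-form probe the same settings gave 1.14, 1.05 and 0.75, so both probes fell under the bounds above in these settings.

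IL6ST encodes gp130, the chain shared by the receptors for interleukin 6, LIF and oncostatin M. Its probe annotated to the full-length transcript measured 7.69, 7.91, 7.56 and 7.65 at 0 h and 7.70, 8.01, 7.99 and 7.79 at 24 h. The arrays overlapped, and the difference of 0.17 ± 0.13 (SE, 95% interval -0.13 to 0.46, limma adjusted p = 0.536) did not pass. A second probe, annotated to a shorter transcript that encodes a soluble form, measured 6.36, 6.72, 5.62 and 5.65 at 0 h and 6.10, 6.55, 6.13 and 6.02 at 24 h. On that probe slide 1 was lower at 24 h by 0.21 and slide 2 higher by 0.44, and the difference over all arrays was 0.11 ± 0.25 (SE, limma adjusted p = 0.849). The shared chain therefore passed the test on neither probe, with intervals that reach at most 0.67.

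OSMR and LIFR, which lie next to each other on chromosome 5, encode the signalling chains that pair with gp130 for oncostatin M and for LIF. OSMR measured 9.60, 9.59, 9.06 and 8.79 at 0 h and 10.19, 10.21, 9.98 and 9.67 at 24 h. Each 24 h array lay above each 0 h array, although the lowest 24 h array, replicate 4, exceeded the highest 0 h array, replicate 1, only slightly. OSMR rose 1.68-fold, a log2 difference of 0.75 ± 0.21 (SE, 95% interval 0.29 to 1.21, limma adjusted p = 0.0490), from 9.26 ± 0.40 (SD) to 10.01 ± 0.25 (SD). Within replicate pairs the difference spanned 0.59 to 0.91, and with the replicate block the adjusted p was 0.00525. Without the block the call was close to its threshold. It was lost on leaving out 0 h replicate 3 (limma adjusted p = 0.116), 0 h replicate 4 (0.0963), 24 h replicate 1 (0.129), 24 h replicate 2 (0.121) or 24 h replicate 3 (0.107), while the difference stayed between 0.59 and 0.86 under every omission.

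LIFR measured 5.81, 6.51, 6.47 and 6.03 at 0 h and 6.51, 8.04, 7.36 and 6.96 at 24 h. Replicate 1 was low at both times, and its 24 h value was level with the highest 0 h value, so the groups were barely apart. The difference of 1.01 ± 0.30 (SE, 95% interval 0.35 to 1.68) did not pass (limma adjusted p = 0.0599). With the replicate block it passed (limma adjusted p = 0.00612), the pairs differing by 0.70, 1.53, 0.88 and 0.94. It also passed without 24 h replicate 1 (limma adjusted p = 0.0246), and the difference was 0.57 without background correction. The neighbours on the OSMR side, RICTOR and FYB1, differed by 0.09 and 0.04 (limma adjusted p = 0.885 and 0.948), and EGFLAM, on the LIFR side, was not detected on any array.

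The promoters of these 4 receptors are shown because IL6R, OSMR, LIFR and IL6ST form one signalling family and differed in which of them passed the test. They are RefSeq sequences on GRCh38.p14, 5′ to 3′ along the gene, covering 250 bases before to 50 after a transcript start. Capitals mark TGTTCT, a half-site of the glucocorticoid response element (AGAACA on the other strand), or TTCNNNGAA, a STAT site. The full element searched was AGAACA and TGTTCT with any 3 bases between them, so it contains the half-site, and both strands were searched for each motif.
IL6R, chr1:154405093-154405392, plus strand: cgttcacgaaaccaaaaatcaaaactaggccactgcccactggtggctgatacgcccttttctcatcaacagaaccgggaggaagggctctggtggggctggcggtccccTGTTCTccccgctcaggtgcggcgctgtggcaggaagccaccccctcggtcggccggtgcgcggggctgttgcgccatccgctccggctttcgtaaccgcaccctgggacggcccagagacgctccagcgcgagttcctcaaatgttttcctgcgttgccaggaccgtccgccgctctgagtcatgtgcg
OSMR, chr5:38845762-38846061, plus strand: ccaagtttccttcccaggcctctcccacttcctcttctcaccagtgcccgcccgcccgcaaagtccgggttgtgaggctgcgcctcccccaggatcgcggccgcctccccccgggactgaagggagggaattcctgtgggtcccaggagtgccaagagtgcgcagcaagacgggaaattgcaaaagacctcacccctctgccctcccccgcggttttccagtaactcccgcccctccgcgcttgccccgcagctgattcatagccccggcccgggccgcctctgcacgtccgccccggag
LIFR, 1 of 3 starts, chr5:38557418-38557717, minus strand: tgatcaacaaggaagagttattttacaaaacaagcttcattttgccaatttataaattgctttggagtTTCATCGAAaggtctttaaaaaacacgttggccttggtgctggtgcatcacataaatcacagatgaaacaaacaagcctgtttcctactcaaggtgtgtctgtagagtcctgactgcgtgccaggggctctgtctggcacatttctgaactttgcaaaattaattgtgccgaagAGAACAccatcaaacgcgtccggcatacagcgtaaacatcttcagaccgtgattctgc
IL6ST, chr5:55994914-55995213, minus strand: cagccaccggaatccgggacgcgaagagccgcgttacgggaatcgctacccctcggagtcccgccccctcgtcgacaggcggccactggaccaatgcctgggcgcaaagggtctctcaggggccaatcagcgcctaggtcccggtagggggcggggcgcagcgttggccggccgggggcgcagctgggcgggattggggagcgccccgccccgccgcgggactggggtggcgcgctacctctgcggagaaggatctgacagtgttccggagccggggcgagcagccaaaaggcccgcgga
The IL6R window holds 1 half-site, beginning at -140 from the start. The LIFR window, shown because it is the only one of the 3 LIFR starts with both motifs, holds a STAT match beginning at -182 and a half-site beginning at -8. The first LIFR start has a STAT match alone, beginning at -165, and the third has neither motif. Neither motif is in the OSMR or IL6ST window. Half-sites occur in 14.8% and STAT matches in 7.66% of all 35116 RefSeq promoter windows of this length, and the full element in 0.00285%. Over the 15 starts listed for 9 of the genes, the full element matched none, the half-site 3 starts (of IL6R, LIFR and IL1R1) and the STAT site 3 starts (of LIFR and IL1R1). These matches describe letters in a short window and say nothing of binding. LIF has no entry.

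IL13RA1 and IL4R form the receptor through which epithelial cells take up signals from interleukins 4 and 13. IL13RA1 measured 12.56, 12.50, 12.81 and 12.16 at 0 h and 12.86, 12.98, 13.20 and 12.92 at 24 h. All 24 h arrays lay above all 0 h arrays, by a small margin at replicate 1 of 24 h. The difference of 0.48 ± 0.16 (SE, 95% interval 0.13 to 0.83) did not pass (limma adjusted p = 0.0898), and passed with the replicate block (limma adjusted p = 0.0294). IL4R, the shared chain for interleukins 4 and 13, measured 8.60, 8.74, 9.03 and 8.91 at 0 h and 8.75, 8.79, 9.43 and 9.14 at 24 h. Slide 2 was brighter than slide 1 at both times, the groups overlapped, and the difference was 0.21 ± 0.18 (SE, 95% interval -0.18 to 0.60, limma adjusted p = 0.562).

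IL1R1, the signalling receptor for interleukin 1, measured 7.28, 7.45, 7.52 and 7.06 at 0 h and 7.72, 7.83, 7.65 and 7.29 at 24 h. Replicate 4 was lowest at both times and kept the groups overlapping. The difference of 0.29 ± 0.16 (SE, 95% interval -0.06 to 0.65) did not pass (limma adjusted p = 0.322). IL1RL1, the interleukin 33 receptor ST2, has a probe annotated to its soluble-form transcript, which measured 4.84, 4.71, 4.80 and 5.96 at 0 h and 4.88, 4.69, 5.17 and 5.64 at 24 h. Only replicate 4 detected it, at both times. The probe annotated to the membrane form measured 4.65 to 5.30 over the 8 arrays and was detected on none. No fold is given for IL1RL1, and at this signal a change was not measurable. Among its neighbours on chromosome 2, IL18R1, an interleukin 18 receptor chain, differed by -0.22 (limma adjusted p = 0.600), and IL1R2, IL1RL2 and IL18RAP were not detected on any array.

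LIF, a cytokine that signals through LIFR and gp130, measured 8.81, 8.94, 8.96 and 8.95 at 0 h and 8.24, 8.31, 8.58 and 8.90 at 24 h. The 0 h arrays were close together and the 24 h arrays spread, with replicate 4 of 24 h inside the 0 h range. The difference was -0.41 ± 0.16 (SE, 95% interval -0.76 to -0.06) and did not pass (limma adjusted p = 0.151, and limma adjusted p = 0.0711 with the replicate block). It was -0.60 on slide 1 and -0.21 on slide 2. The median difference of the 6 receptors detected on all arrays minus that of LIF was 0.80, and 0.89 with IL6R among them. For the latter the SD was 0.31 over the 4 arrays of 24 h, each set against the 0 h mean. That contrast sets several genes against 1 gene and carries no test.

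**Figure D2:**
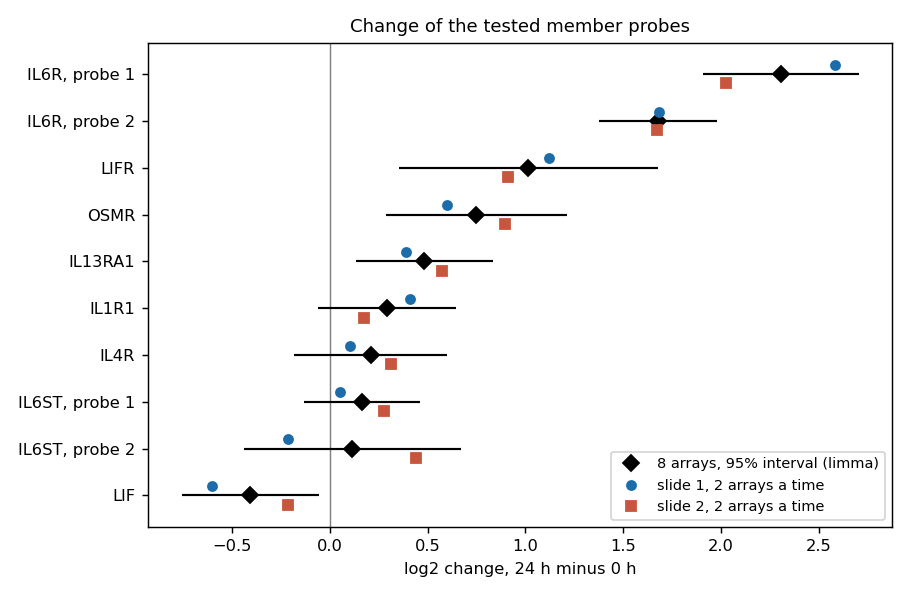
Difference between 24 h and 0 h (log2, horizontal axis) of each tested member probe as a diamond with its 95% interval from limma, beside the difference within slide 1 (circles) and slide 2 (squares). The IL6R probes lie farthest right at 2.30 and 1.68, OSMR follows LIFR with 0.75 against 1.01, and LIF is the 1 member left of 0, at -0.41.

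Few other ligands of these receptors were detected. Of 9 other ligands of the interleukin 6 family, 6 had a probe and 1 was tested, CTF1 (cardiotrophin 1), which differed by -0.17 (limma adjusted p = 0.707). IL6 itself measured 5.99, 5.98, 5.20 and 5.72 at 0 h and 5.36, 4.98, 5.12 and 5.29 at 24 h. Its probe passed detection on 3 of the 0 h arrays and on no 24 h array, too few to be tested. The 0 h value of replicate 3 lay within the 24 h range, so the groups overlapped. With the background correction used here, the means give a bound of at least 1.16-fold lower at 24 h, which was not tested. OSM, the ligand of OSMR, was detected on 1 array of 8.

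Of 8 ligands of the interleukin 1, 33, 4 and 13 receptors and of related receptors, 7 had a probe and 2 were tested. Of these IL1A fell, as did 5.34% of all tested genes. IL1A, an interleukin 1 that acts through IL1R1, measured 6.97, 7.05, 7.22 and 6.02 at 0 h and 5.88, 5.89, 5.26 and 5.46 at 24 h. All 4 of the 0 h arrays and 2 of the 24 h arrays detected it, with 0 h replicate 4 nearest to the 24 h arrays. IL1A fell by 1.19 ± 0.26 on the log2 scale (SE, limma adjusted p = 0.0162), a call lost without 24 h replicate 3 (limma adjusted p = 0.0533). Without background correction it fell by 0.57. IL1RN, the interleukin 1 receptor antagonist, differed by 0.24 (limma adjusted p = 0.633). IL1B, IL33, IL4 and IL13 were not detected on any array.

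Of 9 partner and decoy chains of these receptors, 7 had a probe, 2 were tested and none passed. IL1RAP, the accessory chain that IL1R1 and IL1RL1 need, differed by -0.35 ± 0.16 (SE, limma adjusted p = 0.216), and SIGIRR, an inhibitory receptor of the same family, by 0.20 (limma adjusted p = 0.697). A second SIGIRR probe differed by -0.10 (limma adjusted p = 0.862). IL2RG, the chain that pairs with IL4R in blood cells, the decoys IL1R2 and IL13RA2, and CNTFR were not detected on any array. Of 24 other interleukin and interferon receptor genes, 14 were tested, with a median difference of 0.01, and 1 rose, against 4.72% of all tested genes. The 1 that rose was IL17RC, a chain of the interleukin 17 receptor. It measured 7.44, 7.27, 7.27 and 7.40 at 0 h and 8.26, 8.35, 8.39 and 8.28 at 24 h. The 2 times were far apart relative to their spread, with a difference of 0.98 ± 0.11 (SE, limma adjusted p = 0.00055). IL20RB and IL20RA, the chains of an interleukin 20 receptor, differed by 0.22 and -0.24 (limma adjusted p = 0.434 and 0.504).

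Of 13 JAK and STAT genes and their relatives that carry the receptors' signal, 10 were tested and none passed, with a median difference of 0.03. At unadjusted p under 0.05 in limma 2 were higher and 0 lower, JAK1 and JAK2, which are among the kinases bound to gp130. JAK1 differed by 0.86 ± 0.25 (SE, limma adjusted p = 0.0589) and JAK2 by 0.53 ± 0.15 (SE, limma adjusted p = 0.0531). Both passed with the replicate block, at limma adjusted p of 0.00299 and 0.0196, and each passed in 6 of 18 alternative settings. Over these settings the limma adjusted p spanned 0.00174 to 0.151 for JAK1 and 0.0196 to 0.263 for JAK2. Of 15 genes that restrain this signalling, 14 were tested, of which 1 rose and 1 fell, against 4.72% and 5.34% of all tested genes. SOCS2, a feedback inhibitor of cytokine receptors, measured 11.79, 11.73, 11.50 and 11.54 at 0 h and 10.66, 10.76, 10.79 and 10.24 at 24 h, and fell by 1.03 ± 0.15 (SE, limma adjusted p = 0.0022). PIAS1, a SUMO ligase, rose by 0.62 ± 0.11 (SE, limma adjusted p = 0.00584). PIAS3, the relative that inhibits STAT3, differed by 0.32 (limma adjusted p = 0.165), and the phosphatase gene PTPN1 by 0.28 (limma adjusted p = 0.251). SOCS3, the feedback inhibitor of gp130, was named after its values were seen and differed by 0.09 ± 0.21 (SE, limma adjusted p = 0.850).

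On the interleukin 1 side, 8 of 11 adaptor and kinase genes were tested and 1 rose, against 4.72% of all tested genes. IRAK3, a member of the IRAK family that restrains signalling from IL1R1 and Toll-like receptors, measured 5.69, 5.30, 5.53 and 5.02 at 0 h and 7.61, 7.87, 7.64 and 7.70 at 24 h. The probe passed detection on 2 of the 0 h arrays and all 24 h arrays, and IRAK3 rose by 2.32 ± 0.16 (SE, limma adjusted p = 1.98e-05), or by 1.22 without background correction. TAB3 and TRAF6, which carry the signal on towards NF-kappa-B, differed by 0.23 and 0.13 (limma adjusted p = 0.627 and 0.661). A second TRAF6 probe differed by -0.20 (limma adjusted p = 0.553).

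Genes known as acute-phase genes or targets of STAT3 had the largest median difference among these lists. Of 17, 13 were tested, 8 rose and 0 fell, with a median difference of 2.02, while 4.72% of all tested genes rose and 5.34% fell. The list was chosen with earlier results of these arrays known, so its count is not independent evidence of a direction. SERPINA3 (antichymotrypsin) rose by 5.49 ± 0.29 (SE, limma adjusted p = 2.16e-06), SAA1 (serum amyloid A) by 3.53 ± 0.37 (SE, limma adjusted p = 0.000291), LBP (lipopolysaccharide-binding protein) by 3.04 ± 0.31 (SE, limma adjusted p = 0.000241), and CEBPD, a transcription factor of the acute phase, by 2.03 ± 0.24 (SE, limma adjusted p = 0.000554). A second SAA1 probe differed by 0.38 (limma adjusted p = 0.271). SAA1 and LBP were each detected on 2 of the 0 h arrays and all 4 of 24 h, so their 0 h levels lay near background. Their 24 h arrays alone met the detection filter. Without background correction SAA1 rose by 2.24 and LBP by 1.77. PIM1, a kinase gene downstream of STAT3, differed by -0.56 (limma adjusted p = 0.475), and JUNB by 0.50 (limma adjusted p = 0.555). Of 13 targets of STAT6, 3 were tested and none passed: CCL26 (eotaxin 3) differed by -0.40 (limma adjusted p = 0.464) and SOCS1 by 0.15 (limma adjusted p = 0.737). Of 5 genes of receptor shedding 4 were tested and none passed, ADAM10, a protease that cleaves IL6R, differing by 0.41 and RHBDF2, which helps mature the protease ADAM17, by -0.14 (limma adjusted p = 0.417 and 0.635). NR3C1, the glucocorticoid receptor gene, differed by -0.06 ± 0.17 (SE) on its brightest probe and by 0.21 ± 0.19 (SE) on a second tested probe.

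**Figure D3:**
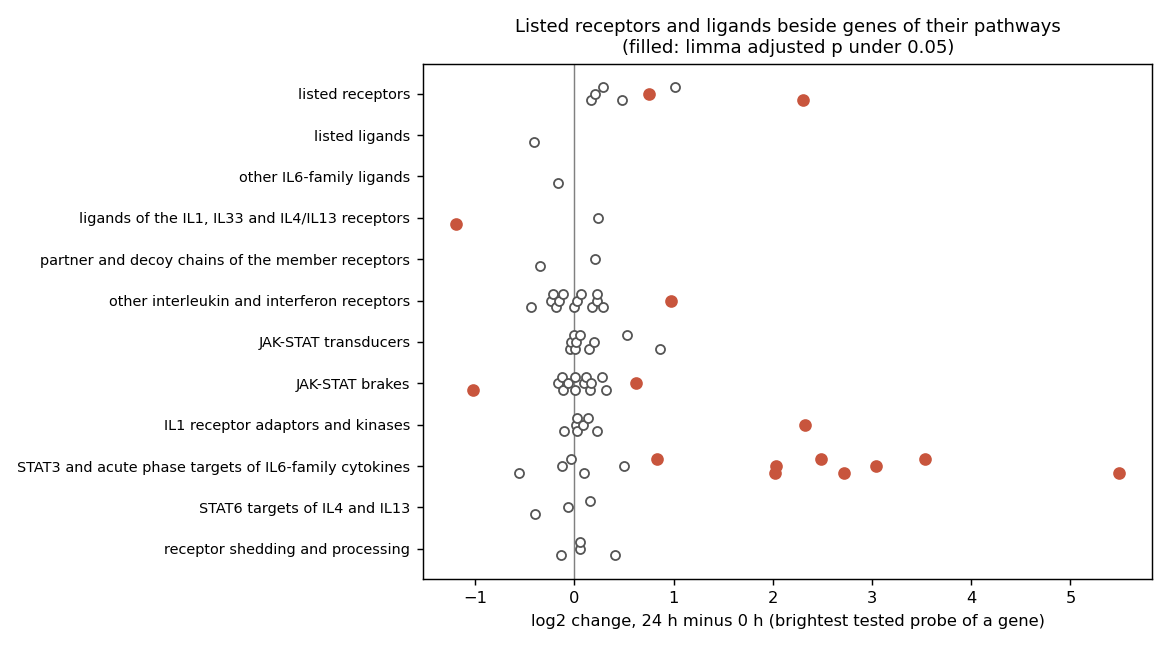
Difference between 24 h and 0 h (log2, horizontal axis) of every tested gene in the member lists and the related lists, one line of points per list, with filled points for genes past the limma threshold. The 13 acute-phase and STAT3 genes reach the highest values, with 8 past the threshold, while the 10 JAK and STAT genes hold none.

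**Figure D4:**
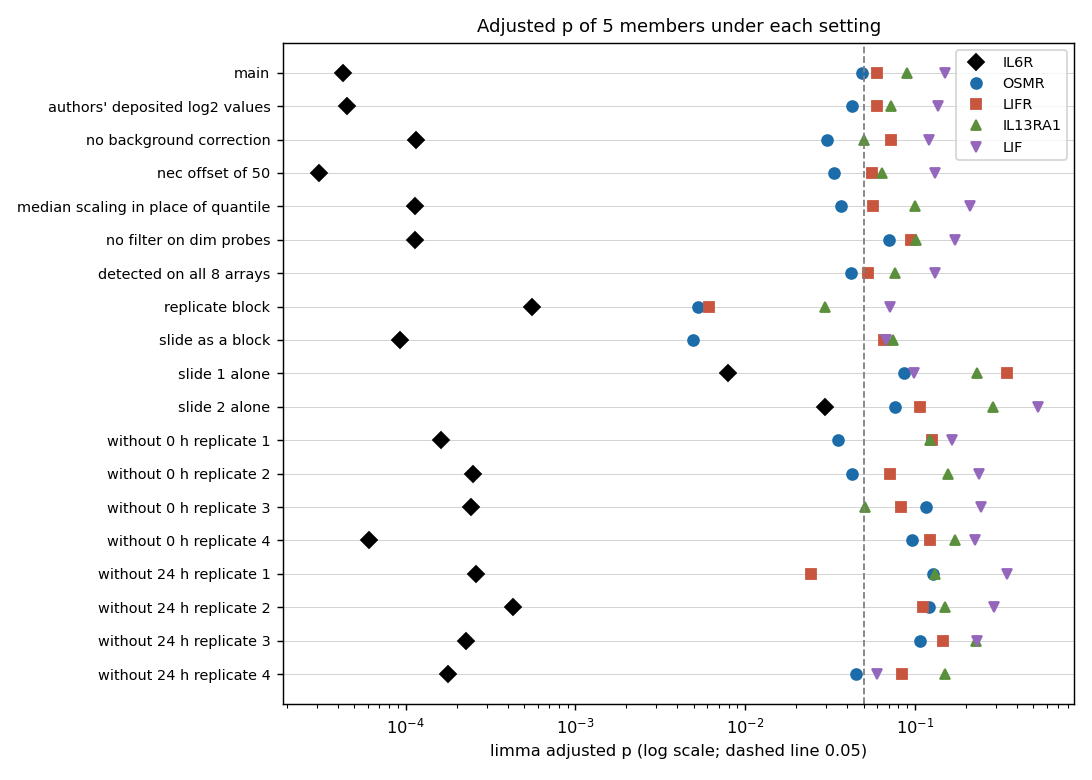
Limma adjusted p (horizontal log axis, dashed line at the threshold of 0.05) of IL6R, OSMR, LIFR, IL13RA1 and LIF under each way of processing the arrays, one line per setting. Under the alternatives OSMR lies below the threshold in 10 of 18, LIFR in 2 of 18, IL13RA1 in 1 of 18 and LIF in 0 of 18. IL6R does so in all 17 in which it could be tested. It passed the detection filter only through its 24 h arrays, so with that filter its direction was fixed.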

How the data were processed

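Mean intensities over beads and detection p-values per probe and array come from the deposited unprocessed table, per the file headers, as does the number of beads. Log2 values, normalized by the authors, were deposited for 22011 of 25204 probes. Per the submitters' processing notes limma was used, with no version given. Whether the authors subtracted background is not given in the sources used here. The authors' values correlated at r = 0.984 to 0.992 with those computed here, probe-centred, array by array.

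Here intensities were background-corrected (nec of limma 3.58.1, R 4.3.3, offset 16), quantile normalized over the 22011 probes and put on the log2 scale. Probes with a detection p-value under 0.05 on at least 4 of 8 arrays were tested with lmFit and eBayes, two-sided, over all 14533 such probes. Gene counts use each gene's brightest tested probe. Of 22011 probes 19759 have 1 gene symbol and 2252 none. For 19741 the symbol was kept or updated through the Entrez identifier in RefSeq (GRCh38.p14), and 18 stayed as annotated. The code was tested on simulated data. Deviations of same-numbered arrays correlated at r = 0.367 to 0.463, each best with its own number. The numbers were therefore taken as pairs in the pair counts and the replicate block, while the main fit used no block. The pairing comes from the labels' replicate numbers.

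The genes and lists were chosen with earlier results of these data known. Named are every member with each probe and, of each other list, up to 4 called genes with the smallest p and up to 2 that did not pass, with EHMT1 and NR3C1. Alternatives were the authors' log2 values, no background correction, an offset of 50, median scaling, other detection filters, the replicate number or slide as a block, each slide alone, and leaving out each array.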

Additional observations from a re-analysis of the deposited data

Results flagged for a closer look

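Within each time, 24 groups of 4 arrays were checked for a value far from the other 3, and 2 had one, where chance gives about 1 in 20 groups. The IL1RL1 probe annotated to soluble ST2 measured 5.96 on 0 h replicate 4, against 4.71 to 4.84 on the other 0 h arrays. The same probe was also highest in replicate 4 at 24 h, at 5.64. LIF measured 8.81 on 0 h replicate 1, just below the other 0 h arrays at 8.94 to 8.96, which lay unusually close together.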

How the results depend on the processing

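With the replicate block 876 genes were higher and 985 lower, against 518 and 585 without it. Slide 1 alone gave 239 and 255, slide 2 alone 215 and 187, and leaving out 1 array each 354 to 490 higher and 406 to 539 lower. Of the members, 2 were higher (IL6R and OSMR), 4 with the replicate block, and 1 to 2 on leaving out each array. These counts include IL6R, whose direction followed from the detection filter. With no filter on dim probes, or either slide alone, 1 was higher, IL6R. With detection required on all 8 arrays 1 was higher, OSMR, since IL6R then could not be tested. Of the 6 receptors detected on all arrays, 1 was higher in the main fit and 3 with the replicate block. No member was lower under any setting. The second IL6ST probe turned direction on slide 1 alone (-0.21) and when replicate 3 or 4 of 0 h or replicate 2 of 24 h was left out (-0.043 to 0.32 over all omissions). Among other genes, direction turned for IL1RN (-0.15) and PIM1 (0.044) on slide 1 alone, for TRAF6 (-0.13) and RHBDF2 (0.081) on slide 2 alone, for SIGIRR without 0 h replicate 1 (-0.024 to 0.37 over all omissions), and for SOCS3 without that array or 24 h replicate 3 (-0.059 to 0.20). The cause was not tested, apart from the fewer arrays or genes that a setting itself leaves. Of 178 member results under alternatives 163 kept direction and side of the threshold, 8 lost the call, 3 gained it and 4 turned. The slide as a block changed no member call. Signal near background limits IL6R at 0 h and IL1RL1 at both times. LIFR and the second IL6ST probe, though detected on every array, were also dim at 0 h. They went down to 5.81 and 5.62, where the dimmest detected signal averaged 5.49.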

Other observations

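Genes beside the receptors and LIF gave few calls. CASTOR1, an arginine sensor of the mTORC1 pathway close to LIF on chromosome 22, fell by 0.80 ± 0.16 on the log2 scale (SE, limma adjusted p = 0.0103), with OSM between it and LIF. ATP8B2 and SHE, on either side of IL6R on chromosome 1, differed by 0.11 and -0.05 (limma adjusted p = 0.878 and 0.882). IL21R, the interleukin 21 receptor gene next to IL4R on chromosome 16, differed by -0.44 ± 0.45 (SE, limma adjusted p = 0.647). MAP4K4, a kinase gene near IL1R1, differed by 0.36 ± 0.20 (SE, limma adjusted p = 0.338). These neighbours were taken by their place in a RefSeq gene table of GRCh38.p14, not for how they moved.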
